A study of Mus musculus with 8 samples.

Results

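The 10 genes described encode 8 chains of cytokine receptors and 2 SOCS proteins: the interleukin receptor genes Il4ra, Il21r, Il2rg, Il10ra and Il10rb, the interferon gamma receptor genes Ifngr1 and Ifngr2, Il6st (gp130), and Socs1 and Socs3. They were taken by name from a table of 23234 gene symbols, and all 10 were found in it. RNA had been sequenced from splenic germinal centre B cells of C57BL/6 mice, 2 libraries in each of 4 groups. These cells cycle between a light zone (LZ), the site of competition for antigen and T cell help, and a dark zone (DZ), the site of division and receptor mutation. Every donor cell carried Prdm1(f/f), 1 ERT2cre allele and 1 B1-8hi allele, so that the controls too were floxed for Prdm1 (Blimp1) and all groups could bind the hapten NP. The Cre acts once tamoxifen is given, and a group without the Prdm1(f/f) alleles is not among those described. The Bach2(+/+) LZ and Bach2(+/+) DZ groups carried unfloxed Bach2, which encodes a B cell repressor of transcription, and the Bach2(f/f) LZ and Bach2(f/f) DZ groups carried floxed Bach2 as well. Naive donor B cells were placed in wild-type hosts, which were given 3 mg tamoxifen for 3 days and then immunized with NP-CGG in alum, and on day 10 NP-binding, GL7+ CD38- donor cells were sorted from the pooled spleens of 5 hosts as LZ or DZ cells, LZ being CXCR4 low and CD86 high and DZ the reverse. The labels state no age and do not say whether replicates came from separate pools, so p-values cover the spread between these libraries alone, which may be technical.

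Cytokines signal by joining receptor chains whose tails hold Janus kinases (JAKs). The kinases phosphorylate STAT proteins, which enter the nucleus and switch on target genes, and among these targets are the SOCS genes, whose products bind the kinases or receptors and damp the signal. In the germinal centre, T follicular helper cells give interleukin-4 and interleukin-21 to B cells, and both cytokines act through receptors that share the common gamma chain encoded by Il2rg.

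Levels are FPKM (fragments scaled to transcript length and to the mapped total of the library), which allow genes of different length to be compared. Differences are on the log2(FPKM + 1) scale with their SE from limma, which understates the change of low genes. Rose and fell are used for an adjusted p under 0.05. Absolute depth is unknown from FPKM. Judged by the commonest ratio among low values, which 20.0% to 27.7% of the genes compared shared, the libraries ranged from 1.00 to 1.62 times the depth of Bach2(+/+) LZ replicate 1, and the DZ libraries were the 4 deepest. Of 10 germinal centre B cell markers 9 were in the table and all 9 passed the filter on low values, and Cd86, used in the sort, was at 77.4 to 106 FPKM in LZ and 31.3 to 38.4 in DZ libraries. Bach2 itself was at 49.8 and 53.4 FPKM in Bach2(+/+) LZ, 64.5 and 62.7 in Bach2(f/f) LZ, 76.2 and 74.6 in Bach2(+/+) DZ, and 96.2 and 94.5 in Bach2(f/f) DZ. It was thus higher in the floxed libraries of each zone (0.30 ± 0.044 in LZ, limma, adjusted p = 0.00454; 0.33 ± 0.044 in DZ, limma, adjusted p = 0.00894, lost without either Bach2(f/f) DZ library at up to 0.0758), the opposite of what loss of the transcript would give. A gene-level value also counts exons that a deletion leaves in place, so loss of Bach2 is not shown by these data and the groups are called by their labelled genotype. In bulk RNA, fewer cells of a type and less RNA per cell cannot be told apart.

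Il21r, the receptor chain specific to interleukin-21, was the most abundant of the 10 genes in all 8 libraries, and its mean over the libraries lay above 92.3% of the genes tested. Il2rg came next, then Il4ra, the chain that binds interleukin-4, then Ifngr1, the ligand-binding chain of the interferon gamma receptor, and this order held in all 4 groups with no overlap between neighbours. The middle of the order differed by zone, where Ifngr2, which completes the interferon gamma receptor, stood at place 5 in both LZ groups and place 7 in both DZ groups. Socs1 and Il10ra overlapped in Bach2(f/f) LZ, and Socs1 and Ifngr2 overlapped in Bach2(+/+) DZ, as did Socs3 and Il6st. Il10rb, the accessory chain of the interleukin-10 receptor, was below these in every group. Socs3 and Il6st, the signal-transducing chain shared by the interleukin-6 family, were the lowest, with means above 8.4% and 2.8% of the genes tested. All 10 genes passed the filter (at least 1 FPKM in at least 2 libraries), but Socs3 and Il6st did so through LZ libraries alone, so that a zone difference in them was partly fixed by the filter.

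**Figure D1:**
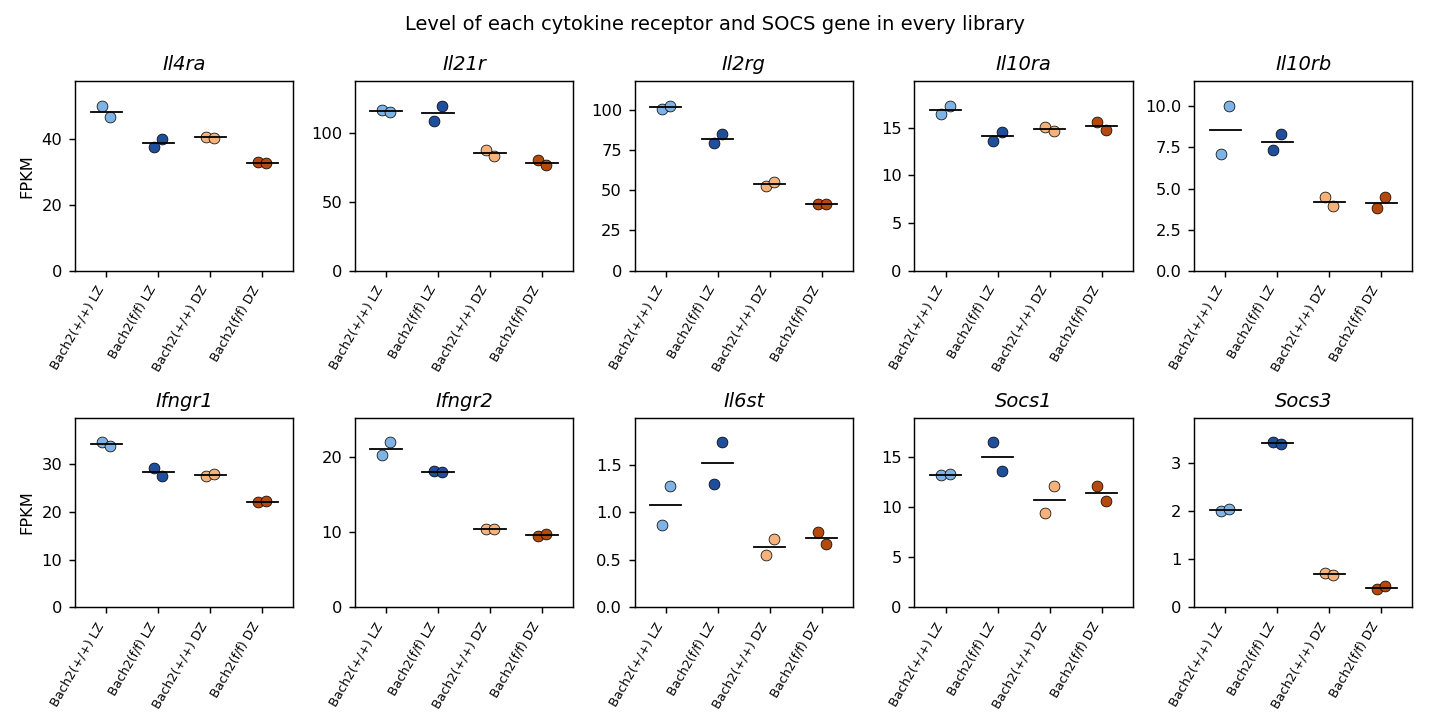
Level of each gene in FPKM (y axis, from 0, scaled per gene) in each of the 8 libraries (points) by group (x axis), with the group mean as a line. Il2rg and Ifngr2 are higher in LZ than in DZ, Il4ra and Ifngr1 are lower in Bach2(f/f) than in Bach2(+/+) in both zones, and Socs3 is highest in Bach2(f/f) LZ and lowest in Bach2(f/f) DZ.

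In the comparison of Bach2(f/f) with Bach2(+/+), Il4ra, Il2rg and Ifngr1 fell in both zones by similar amounts, Il10ra and Ifngr2 fell in LZ, and Socs3 rose in LZ. In LZ, 5 of the 10 genes fell and 1 rose, while of all 10610 genes tested 31.1% passed, 12.7% falling and 18.4% rising. In DZ, 3 of the 10 fell and 0 rose, while 11.9% of all genes passed, 5.23% falling and 6.63% rising. The median difference of the 10 genes was -0.16 in LZ and -0.11 in DZ, beside 0.022 and 0.014 over all genes tested. The 8 values of each gene follow, by role.

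Il4ra was at 49.96 and 46.4 FPKM in the Bach2(+/+) LZ libraries, 37.4 and 39.9 in Bach2(f/f) LZ, 40.5 and 40.3 in Bach2(+/+) DZ, and 32.9 and 32.5 in Bach2(f/f) DZ. Both Bach2(f/f) libraries lay below both Bach2(+/+) libraries in each zone. The difference was -0.31 ± 0.051 in LZ (limma, adjusted p = 0.00613) and -0.30 ± 0.051 in DZ (limma, adjusted p = 0.0172). The LZ call held under every alternative run. The DZ call was lost without any one of the 4 DZ libraries (adjusted p up to 0.109, limma) and without both Bach2(+/+) replicate 1 libraries (limma, adjusted p = 0.0551), with the difference between -0.32 and -0.29 throughout.

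Il2rg was at 100.8 and 102.7 FPKM in Bach2(+/+) LZ, 79.6 and 84.8 in Bach2(f/f) LZ, 52.4 and 55.3 in Bach2(+/+) DZ, and 41.4 and 41.4 in Bach2(f/f) DZ. The groups did not overlap in either zone, and the mean fell by 19.2% in LZ and by 23.1% in DZ. The difference was -0.31 ± 0.046 in LZ (limma, adjusted p = 0.00483) and -0.37 ± 0.046 in DZ (limma, adjusted p = 0.00821). The DZ call was lost without Bach2(f/f) DZ replicate 1 or replicate 2 (adjusted p up to 0.0691, limma).

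Il21r pairs with the Il2rg product but did not pass the test in either zone. It was at 117 and 116 FPKM in Bach2(+/+) LZ, 109 and 120.2 in Bach2(f/f) LZ, 87.9 and 83.9 in Bach2(+/+) DZ, and 80.4 and 76.9 in Bach2(f/f) DZ. The LZ groups overlapped and the DZ groups did not. The difference was -0.027 ± 0.056 in LZ (95% interval -0.16 to 0.11, limma, adjusted p = 0.755) and -0.13 ± 0.056 in DZ (-0.26 to 0.0083, limma, adjusted p = 0.203).

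Ifngr1 was at 34.5 and 33.8 FPKM in Bach2(+/+) LZ, 29.1 and 27.5 in Bach2(f/f) LZ, 27.4 and 28.0 in Bach2(+/+) DZ, and 22.0 and 22.1 in Bach2(f/f) DZ. No Bach2(f/f) library reached a Bach2(+/+) library of its zone. The difference was -0.26 ± 0.043 in LZ (limma, adjusted p = 0.00642; 0.0728 without both LZ replicate 2 libraries) and -0.31 ± 0.043 in DZ (limma, adjusted p = 0.00996; lost without Bach2(f/f) DZ replicate 1 or replicate 2, at up to 0.0784). Ifngr2 was at 20.2 and 21.9 FPKM in Bach2(+/+) LZ, 18.1 and 17.9 in Bach2(f/f) LZ, 10.4 and 10.3 in Bach2(+/+) DZ, and 9.53 and 9.67 in Bach2(f/f) DZ. It too was lower in both Bach2(f/f) libraries of each zone, by -0.21 ± 0.052 in LZ (limma, adjusted p = 0.0242) and -0.099 ± 0.052 in DZ (limma, adjusted p = 0.278). The LZ call was lost with only the LZ libraries fitted, without Bach2(+/+) LZ replicate 2, without Bach2(f/f) LZ replicate 1 or replicate 2, and without both LZ replicate 2 libraries (adjusted p up to 0.213, limma).

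Il10ra, the chain that binds interleukin-10, was at 16.4 and 17.3 FPKM in Bach2(+/+) LZ, 13.6 and 14.5 in Bach2(f/f) LZ, 15.1 and 14.6 in Bach2(+/+) DZ, and 15.6 and 14.7 in Bach2(f/f) DZ. The groups were apart in LZ and overlapped in DZ. The difference was -0.24 ± 0.057 in LZ (limma, adjusted p = 0.0202) and 0.027 ± 0.057 in DZ (limma, adjusted p = 0.812). The LZ call was lost with only the LZ libraries fitted, without Bach2(+/+) LZ replicate 2, without Bach2(f/f) LZ replicate 1 and without both LZ replicate 2 libraries (adjusted p up to 0.11, limma). Il10rb ranged from 7.10 to 10.0 FPKM in LZ and from 3.79 to 4.50 in DZ, with overlapping genotypes in both zones (limma, adjusted p = 0.674 and 0.967). The transcript of the ligand was higher in Bach2(f/f): Il10 was at 1.29 and 0.577 FPKM in Bach2(+/+) LZ and 7.06 and 5.72 in Bach2(f/f) LZ. In DZ it was at 0.424 and 0.182 FPKM in Bach2(+/+) and 2.25 and 2.54 in Bach2(f/f). Of the Bach2(+/+) libraries, LZ replicate 1 alone reached 1 FPKM, so Il10 passed the filter through Bach2(f/f) libraries. A genotype difference in Il10 was thus partly fixed by the filter, and no genotype test is given for it.

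Il6st was at 0.869 and 1.28 FPKM in Bach2(+/+) LZ, 1.30 and 1.73 in Bach2(f/f) LZ, 0.546 and 0.715 in Bach2(+/+) DZ, and 0.788 and 0.668 in Bach2(f/f) DZ. These levels are near the filter, and no genotype difference passed the test (0.28 ± 0.14 in LZ, limma, adjusted p = 0.184; 0.085 ± 0.14 in DZ, adjusted p = 0.762, limma). Its partner chain gene Il6ra, which was named after its values were seen, fell in both zones, from a mean of 3.52 to 1.92 FPKM in LZ (limma, adjusted p = 0.0185) and from 3.25 to 1.54 in DZ (limma, adjusted p = 0.0241). The Il6ra call was lost in 4 of 18 alternatives in LZ and in 6 of 18 in DZ.

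Socs3, which binds gp130 and its kinases, was at 2.00 and 2.05 FPKM in Bach2(+/+) LZ, 3.43 and 3.40 in Bach2(f/f) LZ, 0.719 and 0.665 in Bach2(+/+) DZ, and 0.379 and 0.438 in Bach2(f/f) DZ. Bach2(f/f) libraries were thus above Bach2(+/+) libraries in LZ and below them in DZ, with no overlap in either zone. Socs3 rose in LZ (0.54 ± 0.080, limma, adjusted p = 0.00437; 0.0645 without both LZ replicate 2 libraries). The DZ difference was -0.26 ± 0.080 (limma, adjusted p = 0.084; 0.0492 with a pseudocount of 0.1 and 0.0259 with no intensity trend). Socs3 is also expressed by myeloid cells, whose 9 markers were all in the table, with 6 past the filter and Csf1r listed at 0 in Bach2(+/+) LZ replicate 1. Their sum was 18.2 and 66.05 FPKM in Bach2(+/+) LZ, 29.0 and 153 in Bach2(f/f) LZ and 5.40 to 9.30 over the DZ libraries. Not each marker followed the sum: of the 6 tested, 1 (Tyrobp) rose in LZ and 1 (Mpeg1) fell. The mean of Mpeg1 was 12.6 FPKM in Bach2(+/+) LZ and 7.95 in Bach2(f/f) LZ. The part of such cells in the Socs3 differences was not tested. Without both LZ replicate 2 libraries, where the sum was highest in each genotype, the LZ difference of Socs3 was 0.56. The LZ libraries then left still differed in the sum (18.2 FPKM in Bach2(+/+) and 29.0 in Bach2(f/f)), so this fit does not test the part of such cells. Socs1, which inhibits the kinases of the interferon and common gamma chain receptors, was at 13.2 and 13.2 FPKM in Bach2(+/+) LZ, 16.4 and 13.6 in Bach2(f/f) LZ, 9.39 and 12.1 in Bach2(+/+) DZ, and 12.1 and 10.6 in Bach2(f/f) DZ. It did not pass the test in either zone (0.16 ± 0.13 in LZ, limma, adjusted p = 0.392; 0.082 ± 0.13 in DZ, adjusted p = 0.754, limma).

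**Figure D2:**
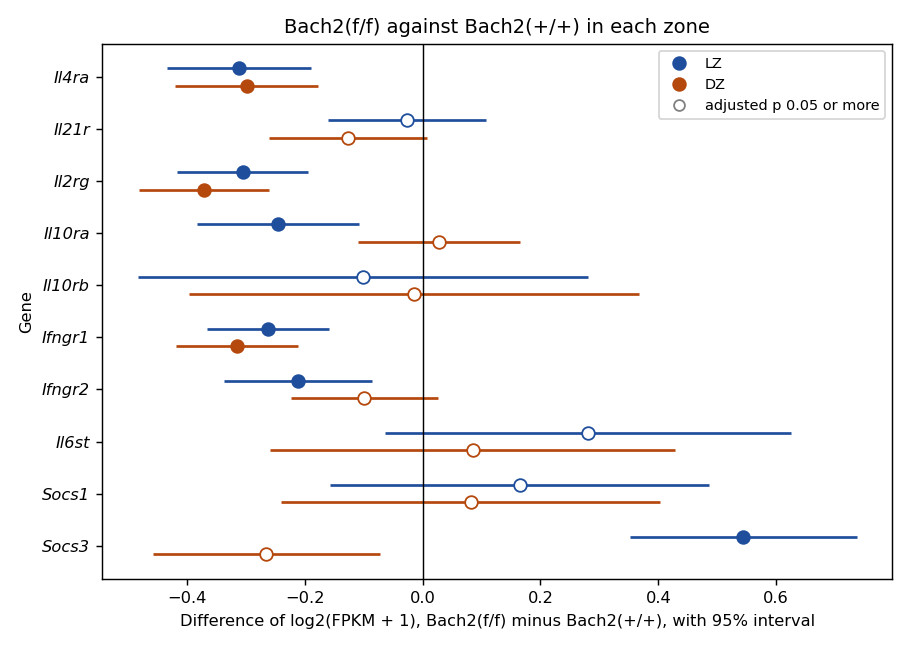
Difference of log2(FPKM + 1), Bach2(f/f) minus Bach2(+/+), with its 95% interval (x axis) for each gene (y axis) in LZ (blue) and DZ (brown), filled where the adjusted p is under 0.05. Il4ra, Il2rg and Ifngr1 are filled and below 0 in both zones, and Socs3 lies at 0.54 in LZ and -0.26 in DZ.

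Markers of T and NK cells were low. Of 8 T cell markers 1 (Lat) passed the filter, Cd3e was at 0 in 6 libraries, their sum was 2.23 to 7.38 FPKM per library, and the T cell cytokine Ifng was listed at 0 in every library. Of 4 NK cell markers 0 passed, with sums of 0 to 2.44 FPKM. The naive or marginal zone B cell markers moved with the genotype in the direction of Il4ra, Il2rg and Ifngr1. Of 8 listed, 7 were in the table and 6 passed the filter, and none of the 7 was at 0 in every library. Their sum was 384 and 420.4 FPKM in Bach2(+/+) LZ, 207 and 216 in Bach2(f/f) LZ, 134 and 129 in Bach2(+/+) DZ, and 70.3 and 69.6 in Bach2(f/f) DZ, with Fcer2a as the highest gene, which is also among the STAT6 response genes given later. Their part in the receptor differences was not tested. The sum of the plasma cell markers was higher in the Bach2(f/f) libraries of each zone, though not each marker was. Of 6 listed, 3 passed the filter and Tnfrsf17 was at 0 in every library, and their sum was 325 and 309 FPKM in Bach2(+/+) LZ, 368 and 368 in Bach2(f/f) LZ, 431 and 449 in Bach2(+/+) DZ, and 460 and 472 in Bach2(f/f) DZ. The highest of them, the J chain gene Igj, rose in LZ (0.24 ± 0.038, limma, adjusted p = 0.00549; 0.104 without both LZ replicate 2 libraries). Prdm1, floxed in every group, was at 0.0577 and 0.0184 FPKM in Bach2(+/+) LZ and 0.980 and 0.966 in Bach2(f/f) LZ, and Sdc1 (CD138) at 0.0666 and 0.0637 and then 0.606 and 0.505. In DZ, 0 of the 3 tested plasma cell markers rose and 1 (Irf4) fell, with a median difference of -0.10. There Igj had means of 360 FPKM in Bach2(+/+) and 393 in Bach2(f/f), and Xbp1 had 75.6 and 70.3. Prdm1 was at 0.0473 and 0.122 FPKM in Bach2(+/+) DZ and 0.258 and 0.434 in Bach2(f/f) DZ. Sdc1 was at 0.0410 and 0.141 and then 0.156 and 0.273. Both genes were thus higher in Bach2(f/f) in DZ as in LZ, at levels under the filter and without a test. The part of the plasma cell markers in the receptor and Socs3 differences was not tested. The sum of 4 erythroid markers was 1.74 to 19.9 FPKM.

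Of the 8 genes that reached 1 FPKM in both zones, the same 6 were higher in LZ than in DZ in both genotypes, namely Il4ra, Il21r, Il2rg, Il10rb, Ifngr1 and Ifngr2, and 0 were lower. Of all genes 31.2% passed in Bach2(+/+), 15.2% higher and 16.1% lower, and 34.1% in Bach2(f/f), 18% higher and 16.1% lower. Socs3 and Il6st, which the filter kept only through LZ libraries, are given without a zone test. The DZ libraries were deeper by the measure above, and FPKM is scaled to depth.

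Among the receptor genes other than Il6st, the accessory chains showed the widest zone differences. Il2rg was 1.89 times as high in LZ as in DZ in Bach2(+/+) (0.91 ± 0.046, limma, adjusted p = 0.000142) and 1.98 times in Bach2(f/f) (0.97 ± 0.046, limma, adjusted p = 7.4e-05). Ifngr2 was 2.03 and 1.88 times as high (0.96 ± 0.052 and 0.84 ± 0.052, limma, adjusted p = 0.000164 and 0.000167). Il10rb was 2.04 and 1.89 times as high (0.87 ± 0.16 and 0.78 ± 0.16, limma, adjusted p = 0.00893 and 0.0113). Its call was lost without Bach2(+/+) DZ replicate 2 in Bach2(+/+) (limma, adjusted p = 0.0514), and without Bach2(f/f) LZ replicate 2 or Bach2(f/f) DZ replicate 1 in Bach2(f/f) (up to 0.0686).

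The ligand-binding chains differed less between zones. Il21r was 1.36 and 1.46 times as high in LZ (0.44 ± 0.056 and 0.54 ± 0.056, limma, adjusted p = 0.00236 and 0.000949). Ifngr1 was 1.23 and 1.28 times as high (0.29 ± 0.043 and 0.35 ± 0.043, limma, adjusted p = 0.00407 and 0.00187). Il4ra was 1.19 and 1.18 times as high (0.25 ± 0.051 and 0.23 ± 0.051, limma, adjusted p = 0.0131 and 0.0138), and each of these calls was lost in 4 of 19 alternatives (adjusted p up to 0.0836 and 0.0809). Il10ra passed in neither genotype, with a difference of 0.17 ± 0.057 in Bach2(+/+) (limma, adjusted p = 0.0639) and -0.10 ± 0.057 in Bach2(f/f) (limma, adjusted p = 0.219).

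Socs3 was 2.93 times as high in LZ as in DZ in Bach2(+/+) and 8.35 times in Bach2(f/f), and the lowest LZ value, 2.00 FPKM, was above the highest DZ value, 0.719. Il6st was 1.70 and 2.08 times as high in LZ. These ratios are a description, and myeloid markers were higher in LZ as well. Socs1 was 1.23 and 1.32 times as high in LZ and passed in neither genotype (limma, adjusted p = 0.152 and 0.0758), the second of these being under 0.05 when either Bach2(+/+) DZ library was left out.

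**Figure D3:**
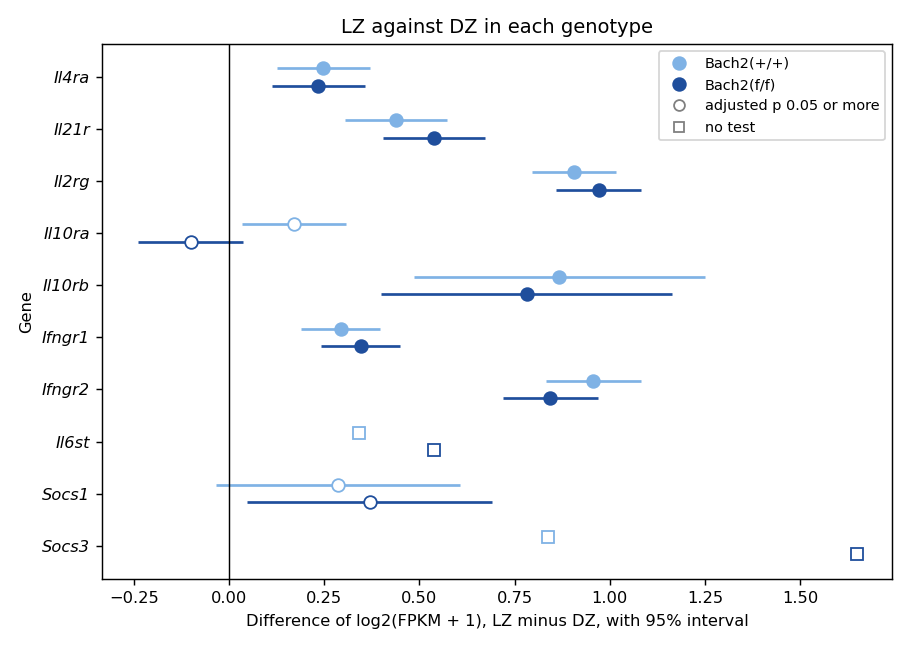
Difference of log2(FPKM + 1), LZ minus DZ, with its 95% interval (x axis) for each gene (y axis) in Bach2(+/+) (light blue) and Bach2(f/f) (dark blue), filled where the adjusted p is under 0.05, with squares and no interval for Il6st and Socs3, which had no zone test. Il2rg, Il10rb and Ifngr2 lie between 0.78 and 0.97, Il4ra and Ifngr1 between 0.23 and 0.35, and Socs3 in Bach2(f/f) lies farthest right at 1.65.

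Whether the genotype difference itself differed between zones was tested as an interaction. None of the 10 genes passed (0 of 10, limma), while 0.0283% of all genes did; at an unadjusted p under 0.05 there were 2 of the 10 (Socs3 and Il10ra) and 1232 of all genes (11.6%). Socs3 had a difference of 0.81 ± 0.11 between the LZ and DZ effects (unadjusted p = 0.000266, limma, adjusted p = 0.207; 0.045 to 0.672 over its alternatives, under 0.05 with no intensity trend). Il10ra had a difference of -0.27 ± 0.081 (unadjusted p = 0.0133, limma, adjusted p = 0.356). For Il4ra, Il2rg and Ifngr1 the differences were -0.013, 0.065 and 0.052, with 95% intervals within -0.18 and 0.22.

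Ratios of paired chains within a library show how the parts of a receptor stood to each other. Il21r was at 1.17 and 1.13 times the level of Il2rg in Bach2(+/+) LZ, 1.37 and 1.42 in Bach2(f/f) LZ, 1.68 and 1.52 in Bach2(+/+) DZ, and 1.94 and 1.86 in Bach2(f/f) DZ. This ratio was higher in all Bach2(f/f) libraries than in the Bach2(+/+) libraries of the same zone, and higher in all DZ than in all LZ libraries. The ratio of Il4ra to Il2rg was 0.452 to 0.496 in LZ and 0.729 to 0.794 in DZ, with overlapping genotypes in LZ. The ratio of Ifngr1 to Ifngr2 was 1.53 to 1.71 in LZ, 2.65 and 2.71 in Bach2(+/+) DZ, and 2.31 and 2.29 in Bach2(f/f) DZ. The ratio of Il10ra to Il10rb was 1.72 to 2.31 in LZ and 3.27 to 4.12 in DZ. With labels permuted within the other factor, 36 arrangements were possible and the smallest 2-sided p they allow is 0.0556, so no ratio could reach 0.05. Over the 5 ratios computed, these 4 and Socs1 to Socs3, the zone effect reached that smallest value for the 4 receptor ratios (exact permutation p = 0.0556, adjusted 0.0556), and no zone test is given for Socs3. The genotype effect reached it for Il21r to Il2rg alone (log2 difference 0.27, exact permutation p = 0.0556, adjusted 0.278).

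**Figure D4:**
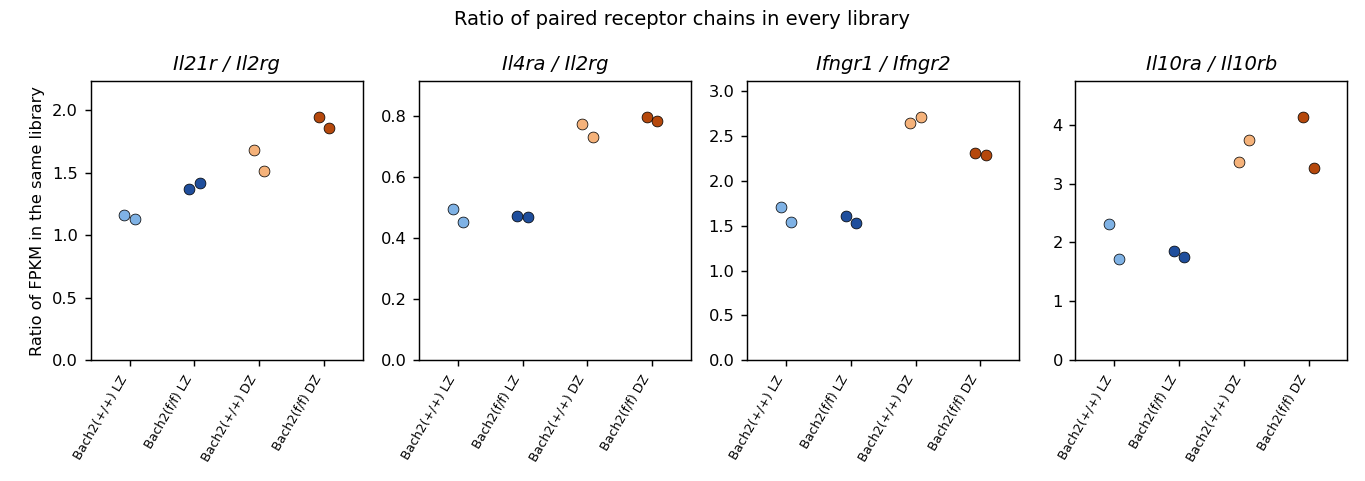
Ratio of the FPKM of 2 receptor chains in the same library (y axis, from 0) for each library (points) by group (x axis). All 4 ratios are higher in DZ than in LZ, and Il21r to Il2rg is also higher in Bach2(f/f) than in Bach2(+/+) within each zone.

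Promoter sequences are shown for Socs3, which had the widest range over the groups, and for Il4ra, Il2rg and Ifngr1, which fell together in both zones. They are the 250 bases before the RefSeq start (build GRCm38.p6, 5′ to 3′ on the gene's strand), while mm9 is the build named in the submitters' processing notes. Capitals mark the letters TTCNNNGAA, a STAT site, the same ends with 4 bases between them, the spacing bound by STAT6, or TGANTCA, an AP-1 site that is also the core of the BACH and MAF element, searched on both strands. Of these 4 promoters, Socs3 alone holds a match.
Socs3 (chr11:117969367-117969616, minus strand): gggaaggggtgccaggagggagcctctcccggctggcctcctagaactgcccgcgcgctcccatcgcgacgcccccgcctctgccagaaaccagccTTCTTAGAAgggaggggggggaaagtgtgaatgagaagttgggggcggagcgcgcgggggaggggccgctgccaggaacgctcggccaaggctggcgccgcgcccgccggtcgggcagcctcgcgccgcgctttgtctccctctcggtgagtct
Il4ra (chr7:125552021-125552270, plus strand): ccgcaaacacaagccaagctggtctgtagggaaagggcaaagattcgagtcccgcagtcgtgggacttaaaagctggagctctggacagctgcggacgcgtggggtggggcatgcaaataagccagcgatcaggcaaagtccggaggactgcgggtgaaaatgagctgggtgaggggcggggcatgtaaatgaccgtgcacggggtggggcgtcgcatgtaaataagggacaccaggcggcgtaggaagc
Il2rg (chrX:101268256-101268505, minus strand): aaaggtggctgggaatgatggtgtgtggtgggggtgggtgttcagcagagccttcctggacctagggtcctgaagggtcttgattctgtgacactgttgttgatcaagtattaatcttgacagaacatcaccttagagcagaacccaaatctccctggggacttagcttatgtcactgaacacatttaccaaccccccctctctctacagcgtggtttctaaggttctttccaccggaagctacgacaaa
Ifngr1 (chr10:19591699-19591948, plus strand): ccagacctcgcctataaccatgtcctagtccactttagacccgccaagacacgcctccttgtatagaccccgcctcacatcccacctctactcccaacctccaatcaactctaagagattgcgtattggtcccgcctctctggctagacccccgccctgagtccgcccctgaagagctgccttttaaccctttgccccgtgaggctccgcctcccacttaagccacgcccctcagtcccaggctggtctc

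Of the 10 genes, 8 had a promoter in the RefSeq table (all but Il10ra and Il10rb), and 2 of these 8 held one of the motifs between 250 bases before and 50 after the start. Socs3 held TTCTTAGAA, starting 154 bases before its start, and Ifngr2 held TTCCCGGGAA, starting 91 bases before. Over all 32851 promoters in the table, 8.3% held TTCNNNGAA, 6.95% the form with 4 bases between and 7.81% held TGANTCA. A match describes letters and is not a measured site.

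Other genes of the pathway were read from lists chosen with earlier results known. Jak1, which serves nearly all of these receptors, fell from 82.9 to 71.9 in LZ and from 81.5 to 71.4 in DZ (limma, adjusted p = 0.0195 and 0.04996). The DZ call of Jak1 was lost in 15 of 19 alternatives and its LZ call in 6. Tyk2 and Jak2, kinases of the same family, fell in LZ (-0.23 ± 0.054 and -0.14 ± 0.042, limma, adjusted p = 0.0207 and 0.0448), where the Jak2 call was lost in 13 alternatives and that of Tyk2 in 6, and did not pass in DZ (limma, adjusted p = 0.17 and 0.164). Jak3, the kinase of the common gamma chain, which was added after its values were seen, passed in neither zone (-0.13 ± 0.064 in LZ, limma, adjusted p = 0.182; -0.18 ± 0.064 in DZ, limma, adjusted p = 0.126).

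Of 18 other cytokine receptor chains tested, out of 30 listed, 1 rose and 3 fell in LZ, where 31.1% of all genes passed, and 1 rose and 4 fell in DZ, where 11.9% did. The share that passed is below that of all genes in LZ and above it in DZ. The share that fell is above that of all genes in each zone, which was 12.7% in LZ and 5.23% in DZ. The TGF-beta receptor genes moved in opposite directions in both zones. Tgfbr1 rose from 12.2 to 14.6 FPKM in LZ and from 25.9 to 33.0 in DZ (limma, adjusted p = 0.00696 and 0.0081). Tgfbr2 fell from 36.1 to 27.6 in LZ and from 33.8 to 27.2 in DZ (limma, adjusted p = 0.0032 and 0.0159). Crlf2, the receptor chain for TSLP, fell by 0.35 in LZ and by 0.31 in DZ (limma, adjusted p = 0.0125 and 0.0401), and Il3ra changed by -0.45 and -0.34 without passing (limma, adjusted p = 0.0743 and 0.233). Of 4 other SOCS family genes tested, out of 6 listed, 0 rose and 0 fell in either zone, with unadjusted p of at least 0.0631 for Socs7, Socs6 and Socs4, whose group means were 5.24 to 16.97 FPKM. Of 13 other inhibitors of the pathway 1 rose and 2 fell in LZ, again a share below that of all genes, and 0 passed in DZ. Ptpn2, a phosphatase that acts on JAKs and STATs, rose from 36.5 to 43.8 (limma, adjusted p = 0.00511), Ptprc (CD45) and the ubiquitin ligase gene Cblb fell by 0.27 and 0.30, and the phosphatase gene Ptpn6 (SHP-1) did not pass (adjusted p = 0.328 in LZ and 0.0812 in DZ, limma).

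Genes known to respond to these cytokines are given by the cytokine they are tied to, and such genes also answer to other signals. The counts stand beside 18.4% of all genes rising and 12.7% falling in LZ, and 6.63% rising and 5.23% falling in DZ. Of 17 interferon gamma response genes tested, out of 22, 9 fell and 0 rose in LZ, and 7 fell and 0 rose in DZ (medians -0.23 and -0.27). Gbp2, an interferon-inducible GTPase gene, was at means of 6.88 and 1.99 FPKM in Bach2(+/+) and Bach2(f/f) LZ. Ciita, the master activator of MHC class II genes, fell by 0.45 and 0.39 and the GTPase gene Igtp by 0.59 and 0.32 in LZ and DZ (adjusted p 0.00214 to 0.0434, limma). Of 9 interleukin-4 and STAT6 response genes tested, out of 13, 1 rose and 5 fell in LZ, and 0 rose and 4 fell in DZ. Of the 5, Ccl22 reached 1 FPKM in the Bach2(+/+) LZ libraries alone, so its fall was partly fixed by the filter. It was at 2.78 and 2.77 FPKM there and at 0.269 and 0.504 in Bach2(f/f) LZ. Fcer2a (CD23) and Il4i1, both classic interleukin-4 targets, fell in both zones by 0.74 to 1.34, and the MHC class II gene H2-Aa by 0.18 and 0.31 (adjusted p 0.000157 to 0.034 over these genes, limma), whereas Nfil3 rose in LZ (0.43 ± 0.067, limma, adjusted p = 0.00543). Of 10 interleukin-21, interleukin-10 and STAT3 response genes tested, out of 13, 1 rose and 0 fell in LZ, and 0 rose and 2 fell in DZ.

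Batf, an AP-1 family factor of that list, was at 36.2 and 35.3 FPKM in Bach2(+/+) LZ, 42.6 and 45.3 in Bach2(f/f) LZ, 11.2 and 11.1 in Bach2(+/+) DZ, and 8.45 and 7.79 in Bach2(f/f) DZ. Like Socs3, it was higher in Bach2(f/f) in LZ (0.29 ± 0.054, limma, adjusted p = 0.00981) and lower in DZ (-0.41 ± 0.054, limma, adjusted p = 0.00891), and the difference between these effects was 0.70 ± 0.077 (limma, adjusted p = 0.142). Irf4, a factor needed for plasma cells and also on the plasma cell marker list, had differences of 0.18 ± 0.12 in LZ (limma, adjusted p = 0.296) and -0.51 ± 0.12 in DZ (limma, adjusted p = 0.0417). Bcl6, the germinal centre regulator, and Bcl3 passed in neither zone, though Bcl6 fell in LZ under upper quartile scaling and quantile normalization (limma, adjusted p = 0.0442 and 0.0341). Of 16 ligand genes, 2 passed the filter, Il10 and Ebi3, a subunit of interleukin-27 and interleukin-35, which fell in DZ from 3.20 to 2.16 FPKM (limma, adjusted p = 0.0479). Of the genotype calls on the pathway genes named here other than Il10 and Ccl22, those of Fcer2a, Il4i1 and Gbp2 in both zones and of Ciita in LZ held in every alternative run. Each of the others was lost in at least 1. The DZ calls of Crlf2, Igtp, Irf4 and Ebi3 were lost in 11, 13, 12 and 12 of 19 alternatives. The H2-Aa call was lost in 9 of 19 in LZ and in 6 of 19 in DZ. Il4 and Il21 were at most at 0.450 and 0.0222 FPKM in any library.

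**Figure D5:**
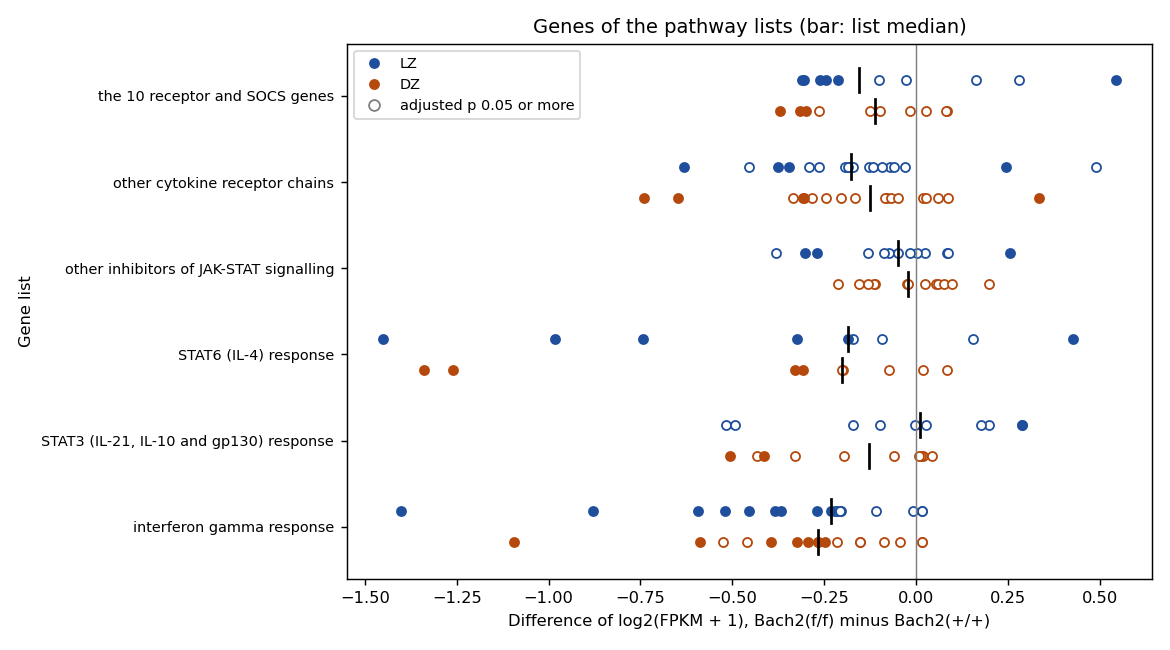
Difference of log2(FPKM + 1), Bach2(f/f) minus Bach2(+/+) (x axis), of each tested gene (points) in the 10 genes and 5 pathway lists (y axis), in LZ (blue) and DZ (brown), filled where the adjusted p is under 0.05, with the list median as a bar. The interferon gamma list has medians of -0.23 and -0.27, and its filled points are all below 0.

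The pattern of each of the 4 genes with the widest range over the groups was compared with 7175 named genes at a mean of at least 5 FPKM, as a description over the 8 libraries. Socs3 was most like Eif1 (Pearson r = 0.994), Itgb2 (0.994) and Psme1 (0.993). Il2rg was most like Nfkbie (0.999), Ly86 (0.998) and H2-Aa (0.997). Ifngr2 was most like Cd86 (0.998), whose protein defined the zones, Fam55b (0.998) and Lta (0.995). Il10rb was most like Arhgap26 (0.990), Necap1 (0.990) and Prkdc (0.989). The 8 points are 4 groups of 2 libraries and share zone and genotype, so they are not independent.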

How the data were processed

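The deposited file holds FPKM values made by the authors for 23234 gene symbols in 8 libraries, per the file headers. The submitters' processing notes list mm9, Cufflinks 2.1.1 and TopHat2 2.0.8 without saying how each was used. RNA of about 30000 cells per library went into NEBNext Ultra libraries, per the labels' protocols; strand is not stated, so overlapping genes can share reads. The table's last line (1 row), which holds library codes and no gene, was dropped; every value column matched a sample.

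Tests ran on log2(FPKM + 1) for the 10610 genes that reached 1 FPKM in 2 or more libraries. All 8 libraries were fitted at once with limma 3.58.1 in R 4.3.3 (group means, intensity trend, 4 residual and 2.46 prior degrees of freedom), 2-sided, with Benjamini-Hochberg adjustment over all genes in each of 5 contrasts. The fit was tested on simulated data. The members, lists and naming rules were chosen with earlier results of these data known. Beyond the 10 genes, up to 4 genes a list with the smallest genotype p and a group mean of at least 5 FPKM were named, and 3 genes of like pattern for each of the 4 widest-ranging genes. Alternatives were a replicate block, pseudocounts of 0.1 and 0.5, no filter or one at 5 FPKM, upper quartile and quantile scaling, no trend, only the groups compared, and leaving out each library. Leaving out both Bach2(+/+) replicate 1 libraries, where Fos was high, and both LZ replicate 2 libraries, where myeloid markers were high, was chosen after seeing the data. The Janus kinase and STAT list is given for its Janus kinases alone, and a result on that list is not reported here.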

Additional observations from a re-analysis of the deposited data

Results flagged for a closer look

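Socs3 stood out because its Bach2(f/f) libraries were all above the Bach2(+/+) libraries in LZ and all below them in DZ. Every DZ value was under 1 FPKM, the level used in the filter, and the DZ difference did not pass (limma, adjusted p = 0.084). The LZ effect exceeded the DZ effect by 0.81 ± 0.11 on the log2(FPKM + 1) scale. That difference had an adjusted p of 0.207 (limma, over 10610 genes), so it did not pass over the whole table.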

How the results depend on the processing

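No call of the 10 genes or of the other genes named for genotype reversed its direction under the alternatives run. Genes named for a like pattern, and Ccl22, Tyrobp and Mpeg1, were not rerun. Leaving out 1 library in turn, the number of the 10 genes past the threshold was 4 to 6 for genotype in LZ, 0 to 3 for genotype in DZ (0 without Bach2(f/f) DZ replicate 1 or replicate 2), 5 to 7 for zone in Bach2(+/+), 5 to 9 for zone in Bach2(f/f), and 0 to 0 for the interaction. Both zone counts were taken with Socs3 and Il6st included, whose zone difference was partly fixed by the filter. Over all genes the counts for the same contrasts, in the same order, were 1703 to 3158 (3299 with all libraries), 112 to 1346 (1258), 2006 to 3032 (3312), 2007 to 3864 (3623) and 2 to 6 (3). With only the groups compared, all-gene counts were 2177 and 649 for genotype in LZ and DZ and 1678 for zone in Bach2(+/+). Without both LZ replicate 2 libraries, 2 of the 10 genes (Il4ra and Il2rg) passed for genotype in LZ, and all-gene counts were 1011, 715, 1514 and 2302 for the 4 group contrasts and 9 for the interaction. Without both Bach2(+/+) replicate 1 libraries they were 575 for genotype in DZ and 11 for the interaction. With no filter the interaction called 5 genes, and with no trend it called 1 of the 10, Socs3. In the fits that leave out libraries, fewer samples enter; other causes were not tested. The labels do not say that replicate numbers mark a shared pool, and differences between replicates 1 and 2 correlated between groups at -0.11 to 0.12. With the replicate number as a block, 6 and 3 of the 10 genes passed for genotype in LZ and DZ and 0 for the interaction, the same counts as without it. The zone calls of Il4ra, Il21r, Il2rg, Il10rb, Ifngr1 and Ifngr2 also held with this block in both genotypes. Upper quartile scaling moved the share of higher calls over all genes in LZ from 59.0% to 45.5%. Under that scaling and quantile normalization, the calls of the 10 genes were unchanged. The filter at 5 FPKM removed Il6st and Socs3. With 2 libraries a group and unknown depth, small differences of Il6st, Socs1 and Il10rb, which had the widest SEs of the 10 genes, are poorly resolved.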
